A study of Bos taurus with 23 samples.

Results

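Explants of bovine endometrium cultured with an in vivo derived conceptus (the AI group, n = 4) were compared with explants of the same uteri cultured with recombinant interferon tau (the IFNT group, n = 4). These are 8 of the 23 samples of the series, chosen by treatment label and by the U number in the sample titles, 1 to 4, and each number gives 1 pair. The tissue was intercaruncular endometrium, the gland-bearing lining between the sites of placental attachment, taken from cows in the middle of the luteal phase. All explants were cultured for 6 h in RPMI medium. IFNT explants received ovine interferon tau at 100 ng per mL, and AI explants received a conceptus of Day 15 that came from a transferred blastocyst made in vivo. By the titles, the AI conceptuses were 31 mm (uterus 1), 29 mm (uterus 2), 23.5 mm (uterus 3) and 21 mm (uterus 4) long, the first 3 labelled female and the last male. Control explants in medium alone and explants with a conceptus from an in vitro produced blastocyst (IVF) came from the same 4 uteri, so that each uterus gave 1 explant to each of the 4 groups. The titles of the 4 AI samples carry the same further code, whose meaning the labels do not give. If it marks a shared donor or recipient, the 4 conceptuses are not independent. The amount of interferon that a conceptus released into its well is not given in the sources used here, so the groups are not matched in interferon dose.

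In ruminants the elongating conceptus signals its presence by secreting a type I interferon, interferon tau. This acts on the endometrium through the type I interferon receptor and the JAK-STAT pathway, raises a large group of antiviral genes, and prevents the rise in oestrogen and oxytocin receptors that would otherwise lead to the release of prostaglandin F2 alpha and to regression of the corpus luteum. The conceptus also secretes other products, among them prostaglandins and proteins, so an explant with a conceptus meets interferon tau together with these. The comparison asked what a conceptus does to the endometrium beyond, or short of, interferon tau alone. Genes are described by how they moved, because no symbol could be matched to the Ensembl identifiers of the counts. For the same reason the labelled tissue was not checked against marker genes, and no sequence is printed.

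The 8 libraries held 24416081 to 31789316 counts, with 14317 to 14676 genes at 10 reads or above. Deviations from the group means correlated between the AI and the IFNT explant of every uterus, at r = 0.27 to 0.65 across genes, and each of the 16 libraries of uteri 1 to 4 was closest to a library of its own uterus. The IFNT library of uterus 2 stood apart from the other 3 in its interferon response, as the interferon genes show.

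With all libraries of uteri 1 to 4 in the fit, more genes were called higher than lower with a conceptus against interferon tau. Without the IFNT library of uterus 2 the order turned, at 557 higher and 621 lower. In the paired model 628 genes were called higher with AI, 4.17% of the 15046 genes tested, and 267 were called lower, 1.77%, which makes 895 or 5.95% in all (edgeR quasi-likelihood test with the uterus as a block, Benjamini-Hochberg adjusted p under 0.05). The higher genes differed by a median of 0.75 on the log2 scale, with an interquartile range of 0.56 to 1.00, and 159 of them differed at least 2-fold. The lower genes differed by a median of -0.61, and 51 of them at least 2-fold. The median over all genes tested was -0.01. A difference of 4-fold or more was seen in 14 higher and 6 lower genes. The 4 AI explants all lay above the 4 IFNT explants in 351 of the 628 genes, where 4.46% of all tested genes showed this, and all lay below in 161 of the 267, where 3.39% did. Within pairs, AI lay above IFNT in 4 of 4 uteri in 621 of the 628 genes, against 15.6% of all tested genes, and below in 260 of the 267, against 11.9%. In whole tissue, a change in RNA per cell and in the number of cells of a type cannot be told apart. These genes were called on the same explants, so the shares describe the calls and do not support them. Of all counts, the 628 genes held 3.17% ± 0.239 (SD, n = 4) in IFNT libraries, 3.72% ± 0.0837 (SD, n = 4) in Control libraries and 5.11% ± 0.185 (SD, n = 4) in AI libraries. The 267 genes held 1.52% ± 0.0567 (SD, n = 4) with IFNT, 1.42% ± 0.129 (SD, n = 4) in Control and 1.03% ± 0.0317 (SD, n = 4) with AI.

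**Figure D1:**
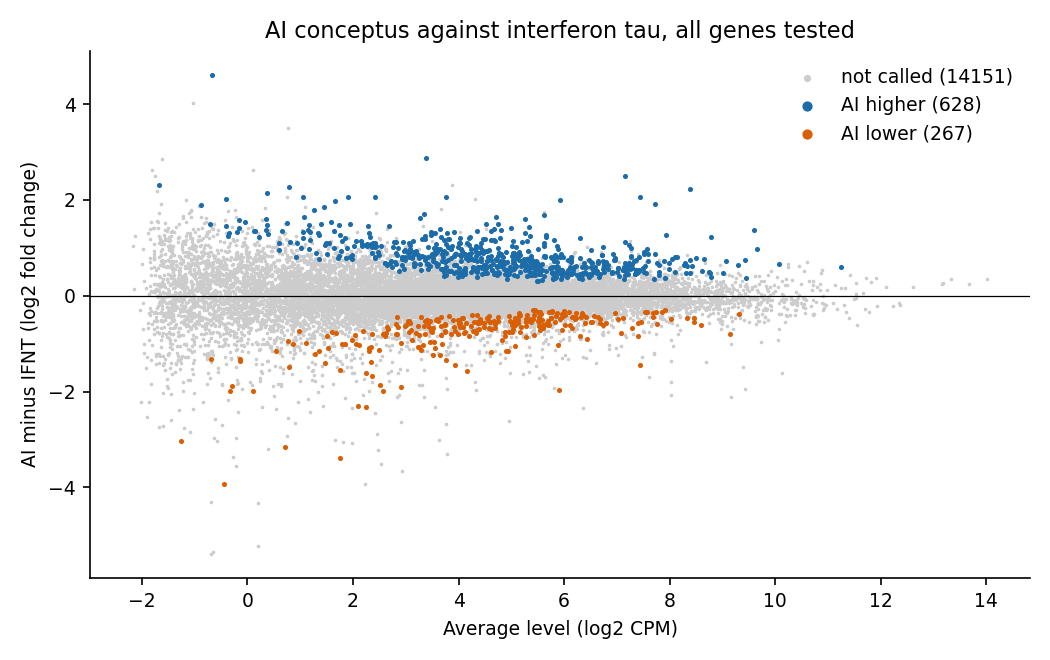
Each point is 1 of the 15046 genes tested, at its average level in log2 CPM (horizontal axis) and its log2 fold change between AI and IFNT (vertical axis, above 0 where AI is higher). Blue points are the 628 genes called higher and orange points the 267 called lower with AI, and most of them differ by less than 2-fold.

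The number of calls rested on the pairing and on uteri 3 and 4. Without the block edgeR called 0 genes, with 1867 at an unadjusted p under 0.05, and DESeq2 called 313. The 895 became 497 without uterus 1, 552 without uterus 2, and 0 without uterus 3 or without uterus 4, where 2567 and 2433 genes had an unadjusted p under 0.05 and DESeq2 called 870 and 621. The smallest edgeR adjusted p without uterus 3 or 4 was 0.05015 and 0.0912, so the first lay just past the threshold. All 895 genes kept their direction in both fits, and 893 and 895 of them had an unadjusted p under 0.05. They had been called with the remaining uteri included, so this does not support the calls. Leaving out the AI library of uterus 1, 2, 3 or 4 gave 552, 511, 407 and 117, and leaving out the IFNT library of uterus 3 or 4 gave 195 and 250. The 628 higher genes became 360 and 334 without uterus 1 and 2, and 0 without uterus 3 or 4. Leaving out IFNT 3 and 4 gave 166 and 203, and AI 2, 3 and 4 gave 411, 315 and 100. The 267 lower genes became 137 without uterus 1 and 0 without uterus 3 or 4. Leaving out Control 1, 2 and 4 gave 175, 177 and 165, IFNT 3 and 4 gave 29 and 47, AI 1 to 4 gave 121, 100, 92 and 17, and IVF 3 and 4 gave 170 and 165. Their number rose to 621 without IFNT 2, and higher genes then made up 47.3% of the calls, where all libraries gave 70.2%.

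The direction of the difference was therefore read in a uterus that had no part in picking the genes. For each uterus in turn, the 100 genes higher with AI and the 100 lower with AI that had the smallest p in the other 3 uteri were read in the pair left out. The genes picked as higher were higher with AI in the left-out uterus in each of the 4 cases, by a mean log2 CPM difference of 0.67, 0.86, 0.98 and 1.01 for uterus 1, 2, 3 and 4. Of the 100 genes, 95, 99, 97 and 98 lay above IFNT in uterus 1, 2, 3 and 4, where 47.3%, 55.4%, 46.9% and 54.1% of all tested genes did. The mean over uteri was 0.88 ± 0.16 (SD, n = 4, exact two-sided sign-flip test p = 0.125, the smallest that 4 pairs allow, adjusted p = 0.125 over 2 such tests). The genes picked as lower differed by -0.52, -0.15, -0.61 and -0.67 in uterus 1, 2, 3 and 4. They lay below IFNT in 91, 61, 94 and 91 of 100 cases, so the difference was smallest in uterus 2. Their mean was -0.49 ± 0.23 (SD, n = 4), with the same exact sign-flip p = 0.125 and adjusted p = 0.125. In both directions each pair was read once and also helped to pick the genes for the other 3 uteri. The 4 means are thus not independent, as the sign-flip test takes them to be, and its p is nominal. In the same left-out uteri the genes picked as higher stood at 0.62, 0.70, 0.78 and 0.86 above Control with AI, and at -0.05, -0.16, -0.20 and -0.15 against Control with IFNT. The genes picked as lower stood at -0.63, -0.09, -0.21 and -0.60 against Control with AI, and at -0.11, 0.06, 0.40 and 0.07 with IFNT. In uterus 2 their AI level was thus near Control, and in uterus 3 the IFNT level lay further from Control than the AI level.

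**Figure D2:**
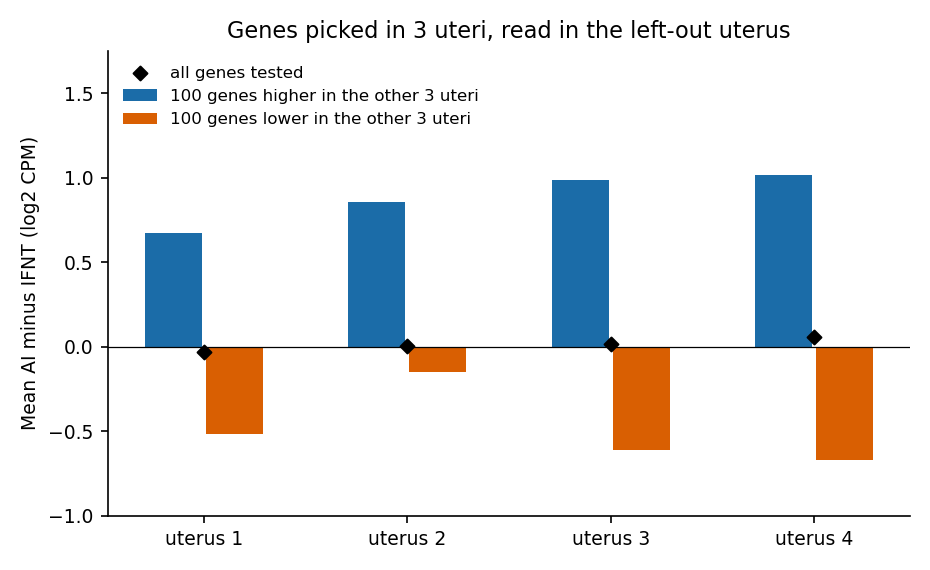
Bars give the mean difference between AI and IFNT (log2 CPM, vertical axis) in each uterus of 100 genes higher (blue) and 100 genes lower (orange) with AI in the other 3 uteri, and black diamonds give the mean over all genes tested. The blue bars lie between 0.67 and 1.01 and the orange bars between -0.67 and -0.15, the shortest in uterus 2.

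The Control explants place the 628 higher genes into 3 groups. In the largest, 386 genes were higher with AI than with IFNT and also higher than in Control, that is, beyond interferon tau. Their median log2 difference was 0.76 between AI and Control and -0.06 between IFNT and Control, and their median level was 19.8 CPM in Control, 17.8 CPM with IFNT and 32.5 CPM with AI. By uterus, the median difference between AI and Control was 0.64, 0.60, 0.86 and 0.83 in uterus 1, 2, 3 and 4, and that between IFNT and Control was -0.07, -0.15, 0.03 and -0.06. Of the 386, 385 were not called between IFNT and Control, and the remaining gene rose with IFNT and rose further with AI, at 95.2 CPM in Control, 237 CPM with IFNT and 384 CPM with AI. The share of genes called higher between AI and Control was 7.34% of all tested genes. The 386 became 221 and 249 without uterus 1 and 2, and 0 without uterus 3 or 4. Leaving out Control 1 to 4 gave 247, 227, 234 and 221, IFNT 3 and 4 gave 143 and 168, and AI 3 and 4 gave 189 and 79.

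The second group of 230 genes was higher with AI than with IFNT but was called in neither comparison with Control. Control lay between the 2 treatments in the medians of these genes, with AI at 0.34 above Control and IFNT at -0.29 against Control. The IFNT estimate was below Control in each of the 230, where it was in 53.7% of all tested genes. The way these genes were chosen favours this. The third group was small. In 12 genes IFNT was called below Control, AI was not, and AI was called above IFNT. Their median log2 difference was -0.997 between IFNT and Control and -0.03 between AI and Control. The AI estimate lay above Control in 6 of these genes. Their median level was 11.8 CPM in Control, 5.11 CPM with IFNT and 11.5 CPM with AI. IFNT lay below Control in 4 of 4 uteri in all 12, genes chosen for this difference, and in 1803 of all 15046 tested genes. Genes called lower between IFNT and Control were 0.678% of all tested genes. The 12 became 5 without uterus 2, and 0 without uterus 3 or 4. Leaving out Control 3 and 4 gave 6 and 7, IFNT 1, 3 and 4 gave 35, 2 and 6, and AI 2 or AI 4 gave 5.

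The 267 lower genes fell into the mirrored groups. In 141 genes AI was lower than both IFNT and Control, at a median of -0.63 against Control, where IFNT stood at -0.02. Their median difference between AI and Control was -0.68, -0.59, -0.55 and -0.66 in uterus 1, 2, 3 and 4, in genes chosen for this difference. Genes called lower between AI and Control were 4.33% of all tested genes. In 1 of the 141 IFNT also lowered the level, from 55.9 CPM in Control to 41.6 CPM, and AI lowered it further to 33.8 CPM. A further 105 genes were called in neither comparison with Control and stood at -0.37 with AI and 0.32 with IFNT. The 141 became 62 and 68 without uterus 1 and 2, and 0 without uterus 3 or 4. Leaving out Control 1, 2 and 4 gave 76, 77 and 84, IFNT 2, 3 and 4 gave 236, 25 and 36, AI 1 to 4 gave 86, 63, 59 and 14, and IVF 3 and 4 gave 90 and 93.

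The last 21 genes were raised by IFNT and were lower with AI than with IFNT, that is, short of interferon tau. Their median log2 difference from Control was 1.02 with IFNT and 0.29 with AI. The difference between AI and IFNT was -0.65, -0.15, -0.76 and -1.05 in uterus 1, 2, 3 and 4, the smallest in uterus 2. Of the 21, 6 were still called above Control with AI, at a median of 1.16 where IFNT gave 1.98, and 15 were not called against Control with AI. Genes called higher between IFNT and Control were 3.52% of all tested genes. The count of 21 was the most dependent on IFNT 2. It rose to 209 without that library and to 79 without uterus 2, and was 3, 0 and 0 without uterus 1, 3 and 4. Leaving out Control 1, 2 and 4 gave 9, 12 and 7, IFNT 1, 3 and 4 gave 10, 0 and 0, AI 1 to 4 gave 3, 5, 5 and 1, and IVF 3 and 4 gave 12 and 8. The groups rest on thresholds in 3 comparisons that share explants, so they describe the called genes and are not independent of each other.

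**Figure D3:**
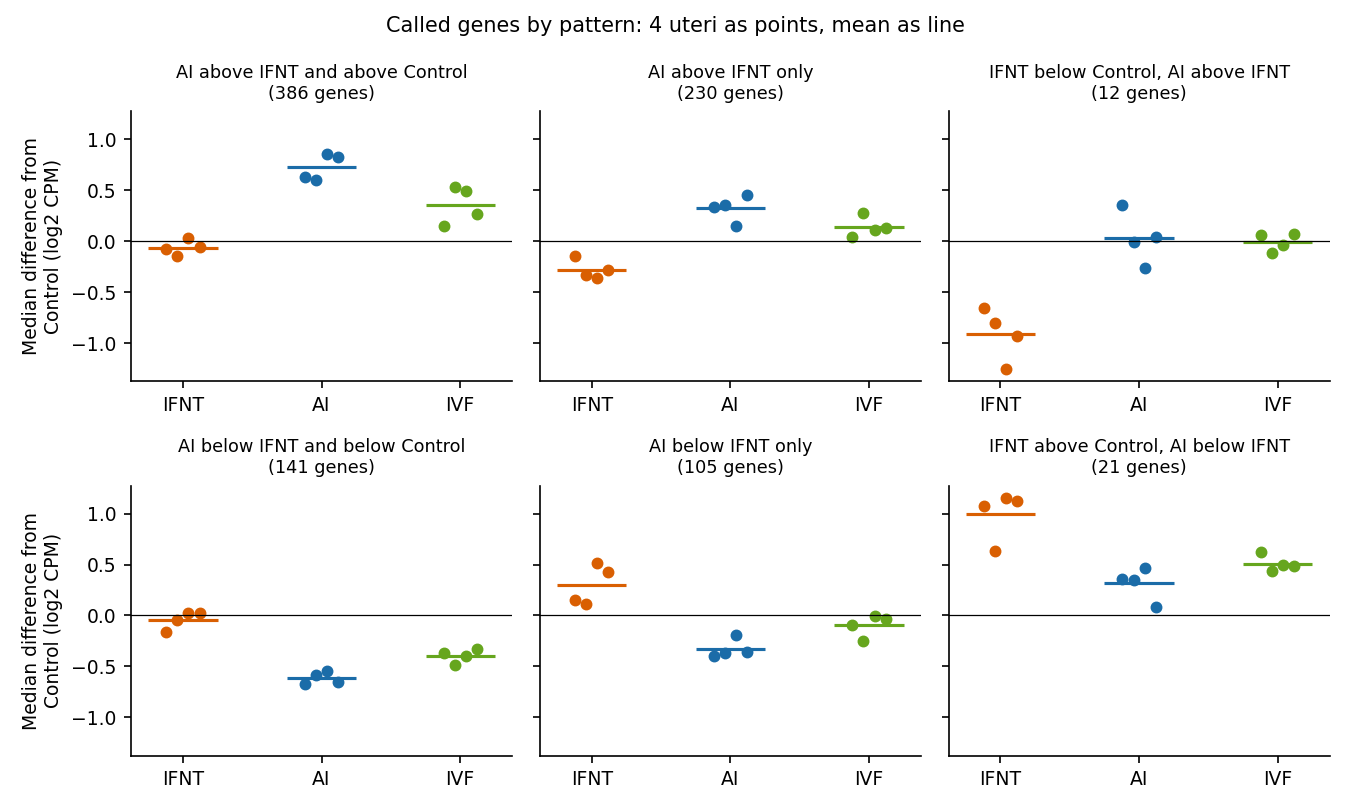
Each panel is a group of called genes, and each point is the median difference of its genes from the Control explant of the same uterus (log2 CPM, vertical axis) with IFNT (orange), AI (blue) or IVF (green) in 1 of 4 uteri, the line being the mean. In the 386 genes of the first panel the AI points lie between 0.60 and 0.86 and the IFNT points between -0.15 and 0.03.

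Of the called genes whose average log2 CPM was 1 or above, the 2 identifiers with the highest fold change are given first. Both belonged to the third group of 12 genes, called below Control with IFNT and not with AI. ENSBTAG00000009812 was at 135, 90.2, 157 and 59.7 CPM in the Control explants of uterus 1, 2, 3 and 4. With IFNT it was at 55.2, 10.98, 42.5 and 16.1 CPM, and with AI at 360, 75.9, 194 and 77.8 CPM. Every IFNT explant lay below every Control and every AI explant, whereas Control and AI overlapped. The AI level was 6.53, 6.91, 4.55 and 4.82 times the IFNT level in uterus 1, 2, 3 and 4. The log2 fold change was 2.51 ± 0.40 (SE, edgeR adjusted p = 0.00868) between AI and IFNT, -2.06 ± 0.40 (SE, edgeR adjusted p = 0.00694) between IFNT and Control, and 0.45 ± 0.38 (SE, edgeR adjusted p = 0.491) between AI and Control. IVF explants held 200, 87.3, 434 and 293 CPM, also above every IFNT explant, and IVF differed from IFNT by 3.22 ± 0.41 (SE, edgeR adjusted p = 0.0237). The call between AI and IFNT was lost without the block (adjusted p = 0.143), without uterus 3 (0.109), without uterus 4 (0.0912) and with all 23 libraries in the fit (0.0567).

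ENSBTAG00000010349 followed the same course at a lower level. It was at 2.76, 10.01, 20.3 and 8.67 CPM in Control, at 0.970, 0.600, 3.64 and 3.54 CPM with IFNT and at 15.6, 11.2, 13.2 and 7.70 CPM with AI in uterus 1, 2, 3 and 4. IFNT lay below Control in each uterus and all AI explants lay above all IFNT explants. The AI level was 16.1 and 18.7 times the IFNT level in uterus 1 and 2 and 3.62 and 2.17 times in uterus 3 and 4. IVF explants held 5.12, 4.76, 40.2 and 17.7 CPM. The log2 fold change of 2.76 ± 0.58 between IVF and IFNT was not called (SE, edgeR adjusted p = 0.0872). The log2 fold change was 2.88 ± 0.60 (SE, edgeR adjusted p = 0.0202) between AI and IFNT and -2.30 ± 0.59 (SE, edgeR adjusted p = 0.0445) between IFNT and Control. It was not called between AI and IFNT without the block (adjusted p = 0.215), in the 8 AI and IFNT libraries alone (0.0863), with all 23 libraries (0.0799), without uterus 1, 2, 3 or 4 (0.0618, 0.0524, 0.114 and 0.112) or without IFNT 3 (0.0653).

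The 2 identifiers with the lowest fold change both belonged to the 141 genes that AI lowered below IFNT and Control. ENSBTAG00000001021 was at 6.62, 2.82, 10.3 and 1.65 CPM in Control, at 5.93, 1.31, 12.4 and 6.22 CPM with IFNT and at 0.0309, 0.756, 0.897 and 0.461 CPM with AI in uterus 1, 2, 3 and 4. All AI explants lay below all Control and IFNT explants, and the AI libraries held 1 to 24 reads of the gene. The log2 fold change was -3.39 ± 0.70 (SE, edgeR adjusted p = 0.0195) between AI and IFNT and 0.20 ± 0.60 (SE, edgeR adjusted p = 0.93) between IFNT and Control. IVF explants held 0.619, 0.522, 1.45 and 1.52 CPM, and the fold change of -2.50 ± 0.64 between IVF and IFNT was not called (SE, edgeR adjusted p = 0.117). The AI call was lost without the block (adjusted p = 0.128), in the 8 libraries alone (0.0914), without uterus 3 or 4 (0.151 and 0.147), without IFNT 3 or 4 (0.0631 and 0.0579) and without AI 3 or 4 (0.0585 and 0.077).

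ENSBTAG00000038600 was at 8.38, 3.17, 3.01 and 9.39 CPM in Control, at 9.16, 0.899, 10.4 and 10.1 CPM with IFNT and at 1.89, 0.409, 1.94 and 1.17 CPM with AI in uterus 1, 2, 3 and 4. The IFNT explant of uterus 2 lay within the range of the AI explants, and the other 3 IFNT explants lay above it. Within each uterus AI lay below IFNT. IVF explants held 1.60, 0.871, 6.26 and 6.10 CPM, above the Control explant in uterus 3. The log2 fold change of -0.98 ± 0.48 between IVF and IFNT was not called (SE, edgeR adjusted p = 0.396). The log2 fold change was -2.32 ± 0.52 (SE, edgeR adjusted p = 0.0239) between AI and IFNT and -2.31 ± 0.52 (SE, edgeR adjusted p = 0.0128) between AI and Control. It was not called between AI and IFNT without the block (adjusted p = 0.215), without uterus 1, 3 or 4 (0.0524, 0.114 and 0.193), without IFNT 1, 3 or 4 (0.0557, 0.0802 and 0.0638) or without AI 2, 3 or 4 (0.0528, 0.0612 and 0.0939). All 4 identifiers kept their direction in the 29 alternatives tried. They were named for their fold change in these same explants, which the alternatives use again, so this does not support the calls.

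**Figure D4:**
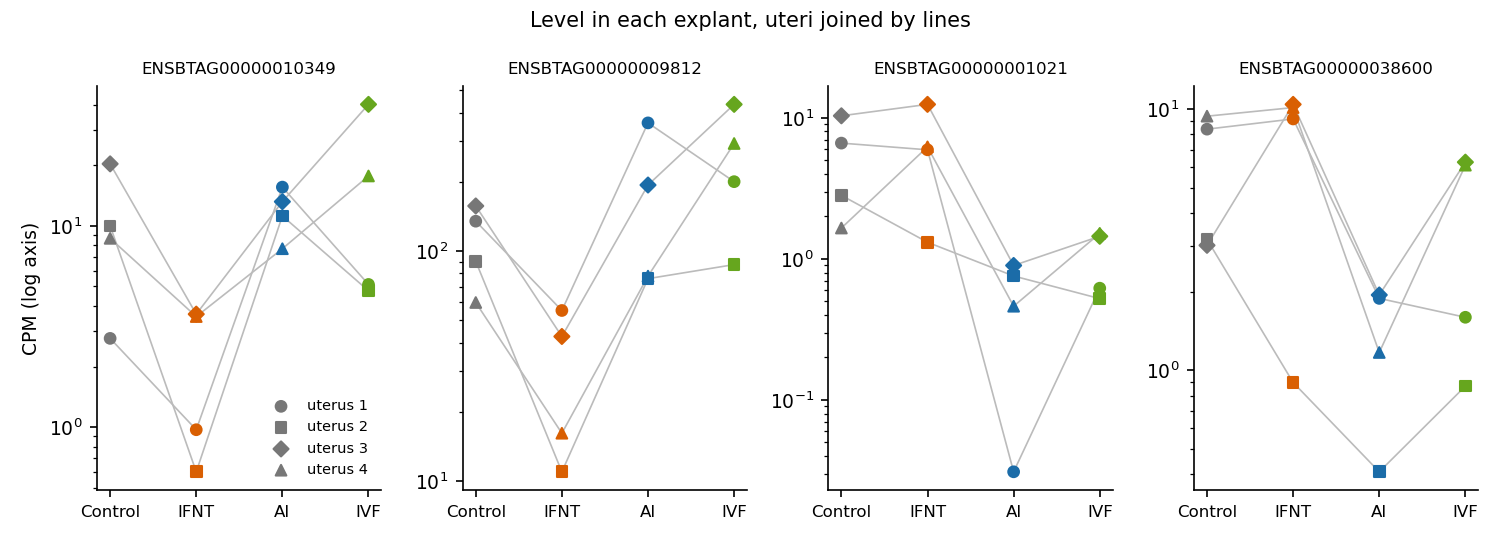
The level of each of the 4 named genes in CPM (vertical axis, log scale) is shown in the Control, IFNT, AI and IVF explant of uteri 1 to 4, joined by lines within a uterus. In the first 2 panels each IFNT point lies below the Control and AI points of its own uterus. In the last 2 each AI point lies below the Control and IFNT points of its own uterus.

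The interferon response itself was compared in genes picked without any explant of uteri 1 to 4. In uteri 5 and 10, which have Control, IFNT and IVF explants but no AI explant, 115 genes were called raised by IFNT (6 libraries, 2 residual degrees of freedom), with a median log2 fold change of 3.52, and these were read in uteri 1 to 4. All 115 were also called raised there with IFNT and with AI, where 3.52% and 7.34% of all tested genes were. With IFNT they stood above the Control explant of the uterus by a median log2 CPM difference of 3.72, 2.62, 3.75 and 3.67 for uterus 1, 2, 3 and 4. With AI the values were 3.54, 3.47, 3.53 and 2.97. IFNT in uterus 2 and AI in uterus 4 were the low explants. The difference between AI and IFNT was -0.37, 0.75, -0.37 and -0.77 in uterus 1, 2, 3 and 4, against medians over all genes of -0.02, 0.08, -0.03 and 0.05. AI lay below IFNT in 105, 100 and 111 of the 115 genes in uterus 1, 3 and 4, and above it in 110 in uterus 2. The mean over uteri was -0.19 ± 0.66 (SD, n = 4), smaller than the spread between uteri. It was -0.51 ± 0.23 (SD, n = 3) without uterus 2 and 0.004 without uterus 4. In the test of single genes 2 of the 115 were called lower with AI than with IFNT and 0 higher. Of all tested genes 1.77% were called lower and 4.17% higher. This list was chosen after the data were examined, and its difference was given no test.

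The sign in each uterus was the same among strong and weak responders of the list. Among the 38 genes of the list with the strongest response in uteri 5 and 10, from 4.70 to 10.4 on the log2 scale, AI differed from IFNT by -0.49, 0.74, -0.40 and -0.79 in uterus 1, 2, 3 and 4. Among the 39 with the weakest response, from 1.22 to 2.51, the values were -0.27, 0.66, -0.28 and -0.64. IVF explants gave 3.23, 3.49, 3.30 and 3.24 above Control for the 115 genes, a narrower range than either IFNT or AI. They too lay below IFNT in uterus 1, 3 and 4 and above it in uterus 2, at -0.54, 0.85, -0.36 and -0.43. AI and IVF differences from IFNT share the IFNT explants.

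**Figure D5:**
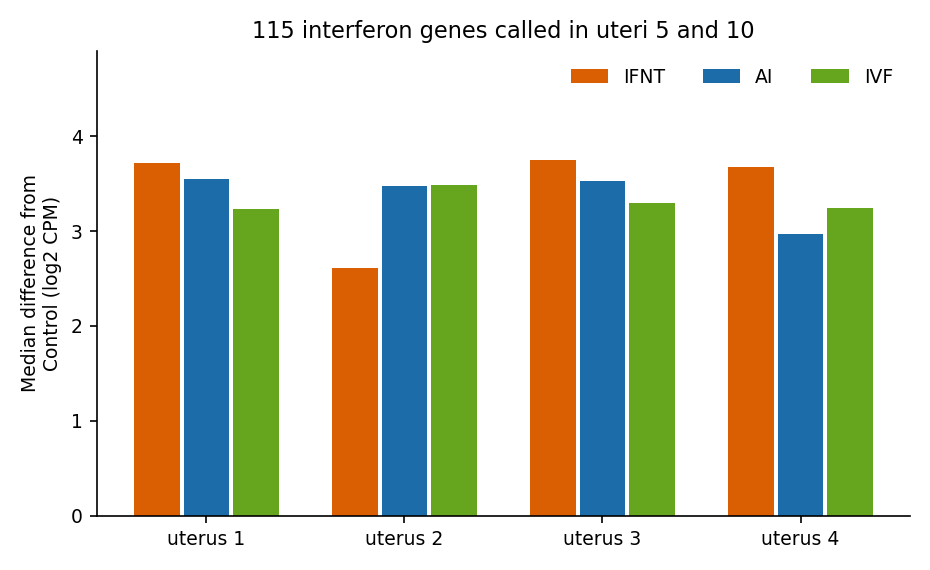
Bars give the median difference from the Control explant of the same uterus (log2 CPM, vertical axis) of 115 genes called raised by IFNT in uteri 5 and 10, with IFNT (orange), AI (blue) and IVF (green) in uteri 1 to 4. The IFNT bar is the highest of the 3 in uterus 1, 3 and 4 and, at 2.62, the lowest in uterus 2.

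Called over the whole of uteri 1 to 4, 529 genes rose with IFNT and 1105 with AI. The 529 became 351 and 292 without uterus 1 and 3, and the 1105 became 394, 545 and 707 without uterus 3, uterus 4 and Control 3. Without the block 378 and 409 genes rose. Of the 529, 419 also rose with AI, where 7.34% of all tested genes did. The direct comparison of AI with IFNT called 21 of the 529 lower and 1 higher, where 1.77% and 4.17% of all tested genes were. That comparison shares the IFNT explants on which the 529 were chosen. A further 301 genes were called higher with AI against Control, not with IFNT, and not between AI and IFNT, and these are not shown to differ between the treatments. The same holds for 452 genes called lower with AI alone. AI and IFNT share their Control explants in these counts.

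The in vitro derived conceptus gave a partly independent reading of the genes called between AI and IFNT, because the difference between IVF and Control uses neither group. Control and IVF libraries did share in the spread that decided the calls, and without IVF 1 or IVF 4 the calls numbered 1143 and 630. The reading is thus not fully separate from the choice of the genes. The 628 higher genes stood above Control with IVF by a median of 0.12, 0.43, 0.34 and 0.21 in uterus 1, 2, 3 and 4, and 44.6% of them were above Control in 4 of 4 uteri, where 15.0% of all tested genes were. The 267 lower genes stood at -0.28, -0.38, -0.24 and -0.20, and 52.1% of them were below Control in 4 of 4 uteri, where 15.9% of all tested genes were. In size, the IVF difference from Control was below that of AI for the higher genes, with medians of 0.27 and 0.59, and for the lower genes, with -0.29 and -0.50. That order was read in genes chosen for their level with AI. By the titles the IVF conceptuses were 14, 8, 21 and 19 mm long in uterus 1, 2, 3 and 4. Each was shorter than the AI conceptus of its uterus, so origin and length cannot be told apart here. In the direct test of AI against IVF edgeR called 0 genes, or 0%, with 912 at an unadjusted p under 0.05, and DESeq2 called 15. Between IVF and IFNT edgeR called 13 genes, or 0.0864%, and DESeq2 called 520.

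Outside uteri 1 to 4 the higher genes did not stand above Control with a conceptus. Of the 626 that were tested in uterus 5 and 10, 31.6% and 52.1% lay above Control with IVF, where 46.6% and 51.9% of all genes did, and their median difference from Control was -0.16 and 0.02. Against IFNT, IVF stood at -0.11 in uterus 5 and 0.29 in uterus 10, where IFNT itself stood at -0.10 and -0.29 against Control. IVF lay above IFNT in 41.2% of the higher genes in uterus 5 and 73% in uterus 10, where 47.3% and 48.7% of all genes did. The 266 lower genes differed between IVF and Control by 0.07 in uterus 5 and -0.17 in uterus 10, and between IVF and IFNT by 0.04 and -0.38. IVF lay above Control in 56.8% and 36.8% of them, and above IFNT in 55.6% and 19.9%. Against IFNT, uterus 5 and uterus 10 thus went opposite ways in both sets of genes. No explant of these uteri was cultured with an AI conceptus.

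Calls were spread over the range of expression. Among the least abundant of 4 equal bins of tested genes, up to 2.04 log2 CPM, 2.55% were called between AI and IFNT, with a median absolute log2 difference of 1.31. In the next 3 bins 6.43%, 7.55% and 7.26% were called, with medians of 0.84, 0.64 and 0.57. Genes read only beside a conceptus were next to absent. Of 1510 genes with at most 3 reads over the 12 Control and IFNT libraries of the series, 0 reached 20 reads over the 4 AI libraries, and 6 reached 20 over the 7 IVF libraries. Among the 698 genes with no read in those 12 libraries the highest AI total was 16 reads.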

How the data were processed

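RNA was sequenced from endometrial explants with a stranded TruSeq mRNA kit, per the labels' protocols. Tools listed, per the submitters' processing notes, are edgeR, HISAT2 and StringTie with the build UMD3.1, and no versions or roles. The sources used here do not name the counter, annotation release or strand setting. The authors deposited whole read counts, not normalized, for 18897 Ensembl genes, and overlapping genes or close paralogs may share reads. Columns were matched to samples by the name in each description, groups taken from the treatment label and uterus numbers from the titles. No 2 libraries of the AI group, or of the IFNT group, agreed within sampling noise (chi-square per degree of freedom of at least 51.95). Control and IVF libraries were not checked in this way.

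The 16 libraries of uteri 1 to 4 were fitted across all genes in R 4.3.3 with edgeR 4.0.16 (filterByExpr, TMM, quasi-likelihood F test, 4 groups and uterus as an additive block, 9 residual degrees of freedom). The paired fit is the main one because the comparison is defined by same-numbered explants, and the fit without the block is given beside it. The layout is complete, so the AI minus IFNT estimate rests on the 4 pairs, while all 16 libraries share the spread. The same-uterus pairs correlated at r = 0.20 to 0.68 (24 pairs), different uteri at a median of -0.20, so the numbers pair the libraries. The labels do not say whether the AI conceptuses had separate parents, so p-values measure the spread between these explants only. CPM use TMM-scaled totals, and log2 CPM a prior count of 2. DESeq2 1.42.0, other scalings, filters and left-out libraries were alternatives. The script was checked on simulated counts.

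The identifiers matched 0 entries of the ARS-UCD2.0 gene table used for symbols, so 24 gene lists fixed by symbol and the naming rule could not be applied. Its fallback named the 2 highest and 2 lowest fold changes among called genes with an average log2 CPM of at least 1. Members, lists and tests were chosen with earlier results of these data known.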

Additional observations from a re-analysis of the deposited data

Results flagged for a closer look

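In a group of 4 explants, a value was marked when its gap to the nearest other explant was large against the group's range by Dixon's criterion, which chance passes in about 1 in 20 groups. Of 15 groups of values checked, 3 were marked. The IFNT response of the 115 interferon genes was 2.62 in uterus 2, far below the 3.67 to 3.75 of uterus 1, 3 and 4. The AI response of the same genes was 2.97 in uterus 4, below the 3.47 to 3.54 of the other 3 uteri. ENSBTAG00000038600 was at 0.899 CPM in the IFNT explant of uterus 2, where the other 3 IFNT explants held 9.16 to 10.4 CPM.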

How the results depend on the processing

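The counts of called genes depended on the fit, while the held-out genes kept their direction in 4 of 4 uteri under each alternative tried for them. With all libraries of uteri 1 to 4 and the uterus as a block the counts were 895 called, 628 higher, 267 lower, 386 and 141 beyond IFNT, and 21 and 12 short of it. With no replicate block edgeR gave 0 for each of them. DESeq2 gave 1867, 1172, 695, 657, 353, 89 and 66 with the block, and 313, 180, 133, 115, 69, 12 and 3 without it. It held 894 of the 895 genes with the block. The paired fit of the 8 AI and IFNT libraries alone called 44 genes, 39 higher and 5 lower. With all 23 libraries the 21 genes became 48. DESeq2 without uterus 3 gave 13 for these, and without uterus 4 it gave 169 lower, 255 and 76 beyond IFNT. Leaving out single explants or uteri moved the 895 to between 0 and 1178, the 628 to between 0 and 797, the 267 to between 0 and 621, the 386 to between 0 and 491, the 141 to between 0 and 236, the 21 to between 0 and 209 and the 12 to between 0 and 35. A longer gene list per direction gave a mean of 0.72 for the higher genes in the left-out uterus, where 100 gave 0.88. For the interferon genes the difference of -0.19 lay between -0.51 and 0.004 without each uterus in turn, and turned sign without uterus 4. A left-out library leaves its group with 3 explants. The cause of these shifts was not tested. Alternatives that left out Control or IVF libraries, joined DESeq2 with a left-out uterus or the missing block, or used the interferon genes were chosen after the data were examined. The depth of 24416081 to 31789316 counts limits genes such as ENSBTAG00000001021, with 1 read in AI 1.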

Other observations

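The difference between AI and IFNT was not equally alike in all pairs of uteri. Across the 15046 genes, which are not independent replicates, the difference correlated at r = 0.46 between uterus 1 and 2 and at r = 0.47 between uterus 3 and 4, and at 0.26, 0.22, 0.12 and 0.04 between uterus 1 and 3, 1 and 4, 2 and 3, and 2 and 4. The pairs share no library. By the share of genes with the same sign, uterus 3 and 4 stood out at 70.1%, while uterus 1 and 2, at 60.0%, were near uterus 1 and 3 at 59.2% and uterus 1 and 4 at 58.5%. The difference between IVF and IFNT uses the same IFNT explants. For it, uterus 3 and 4 gave the highest r of the 6, at 0.33, and uterus 1 and 2 gave the lowest, at -0.44. IFNT against Control was also most alike between uterus 3 and 4, at r = 0.577. AI against Control gave 0.575 there, and its highest r was 0.589, between uterus 1 and 2. What lies behind these values was not tested. In the titles the IVF conceptuses of uterus 1 and 2 share a further code and those of uterus 3 and 4 share another, while all AI conceptuses share a code of their own.

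The spread of the difference over genes was largest in uterus 2, with an SD of 0.82 on the log2 scale, where uterus 1, 3 and 4 gave 0.66, 0.61 and 0.68. Uterus 2 had 938 genes at least 2-fold higher and 1191 at least 2-fold lower with AI, and uterus 3 had 911 and 504.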
